A study of Caenorhabditis elegans with 12 samples.

Results

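The transcriptome described here is that of wild-type Caenorhabditis elegans, strain N2, held for 48 h in arrest at the first larval stage (L1). It was taken from the 4 libraries labelled N2, replicates A to D, out of 12 libraries in the series. The other 8 come from 2 strains that carry alleles of another gene and are not described. Eggs were freed from mothers with hypochlorite and kept in M9 buffer without food, so that the hatched larvae arrested, and RNA of whole larvae was extracted with Trizol after bead beating. The N2 animals carry no labelled allele and received no other labelled treatment. The labels call the 4 libraries biological replicates and give no day, batch or number of animals for them.

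An L1 larva that hatches without food stops development before its blast cells divide and can survive for weeks. At hatching it has a full larval body plan, with pharynx, intestine, body wall muscle, epidermis and most of its nervous system, and a gonad that holds only a few somatic and germ line precursor cells. Oocytes, sperm and the adult cuticle do not yet exist at this stage, and yolk protein genes are known as genes of the adult hermaphrodite intestine.

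The libraries held 23068345, 24594436, 34832403 and 25478300 gene counts in A, B, C and D. Of 46934 genes in the table, 18768 had no count in any of the 4. To order genes, each count was divided by the length of the gene's annotated exons in kilobases and scaled so that protein-coding genes sum to 1000000 in each library, and this value is called the level. In a gene of median exon length (1160.5 bases), 3 counts make a level of 0.101 to 0.168, which is the floor of these depths, and it covers counting error only. B stood apart from the other libraries in many genes, and D in certain gene lists. Both are described below, so values are given for each library.

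Of 19984 protein-coding genes, 11718 (58.6%) had a level of 1 or more in all 4 libraries. Without library B this count was 12738. Another 5600 genes (28.0%) were under 1 in all 4, 2666 were at 1 or more in some, and 737 (3.69%) had no count at all. The median level was 5.01 over all protein-coding genes and 19.6 over those at 1 or more in every library. Levels of 10 or more in every library were reached by 6595 genes, of 100 or more by 1043 and of 1000 or more by 144. The number of genes at 1 or more was lowest in B and highest in D, with 13339, 12153, 13150 and 13835 in A to D.

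Counts were spread over many genes. The protein-coding gene with the most counts took 1.28%, 1.37%, 1.23% and 1.21% of protein-coding counts in A to D. The 10 protein-coding genes with the most counts took 7.12%, 8.59%, 7.23% and 6.61%. The 100 with the most took 26.3%, 29.6%, 26.5% and 25.5%, and the 1000 with the most took 63.95%, 69.95%, 64.5% and 61.8%. All these shares were highest in B and lowest in D.

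Protein-coding genes took 88.6%, 90.7%, 95.8% and 91.0% of all counts in A to D. Ribosomal RNA was the other large class, at 8.72%, 5.85%, 1.28% and 6.02%, each with a 95% Wilson interval no wider than 8.71% to 8.74% in A. These intervals cover counting error only, not the spread between libraries. C was far below the others in this class. Nearly all of it was a single annotated gene of the ribosomal DNA repeat, rrn-3.1, with 8.57%, 5.75%, 1.20% and 5.89% of counts. A pseudogene annotated on the same chromosome arm, WBGene00004677, followed the same order, with 0.277%, 0.207%, 0.0400% and 0.209%. How reads from repeated or overlapping sequences were assigned was not stated in the sources used, so values of repeats, of near-identical paralogs and of overlapping genes are uncertain.

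Genes annotated as ncRNA took 1.44%, 2.24%, 1.90% and 1.75% of counts. The largest of them was tts-1 (X:1504131-1504841, minus strand), a long non-coding RNA known from dauer larvae and long-lived daf-2 mutants. It had 0.325%, 0.756%, 0.603% and 0.568% of counts, highest in B and lowest in A, and it ranked among the 10 genes of any class with the most counts. The next, Y53F4B.45 on chromosome II, had 0.455%, 0.288%, 0.477% and 0.498%. On the CPM scale with TMM factors (trimmed mean of M values, a scaling for library composition), its highest and lowest library differed by 1.15-fold. Pseudogenes together took 1.10%, 1.04%, 0.947% and 1.12%, of which WBGene00014309 on chromosome II had 0.341%, 0.504%, 0.379% and 0.379%.

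Short RNA classes were near absent from these libraries. No count was found for 13250 of 15363 piRNA genes (86.2%), 377 of 634 tRNA genes, 148 of 261 miRNA genes, 113 of 346 snoRNA genes and 55 of 129 snRNA genes. The piRNA class as a whole took 0.00773%, 0.00601%, 0.00742% and 0.00898% of counts, and its highest member, 21ur-9656, had 22, 52, 61 and 29 counts. The labels name only a standard Illumina preparation, so whether short RNA could enter the libraries is not given. The 194 lincRNA genes took 0.0707%, 0.125%, 0.0840% and 0.0873%. The highest lincRNA was T09F5.12 on chromosome V, with 0.0300%, 0.0754%, 0.0315% and 0.0355%, and B was the high library in both values. The top antisense RNA, F53F1.14, shares 97.7% of its exon length with a gene on the other strand, and without known strandedness its 294 to 716 counts cannot be assigned to either gene.

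**Figure D1:**
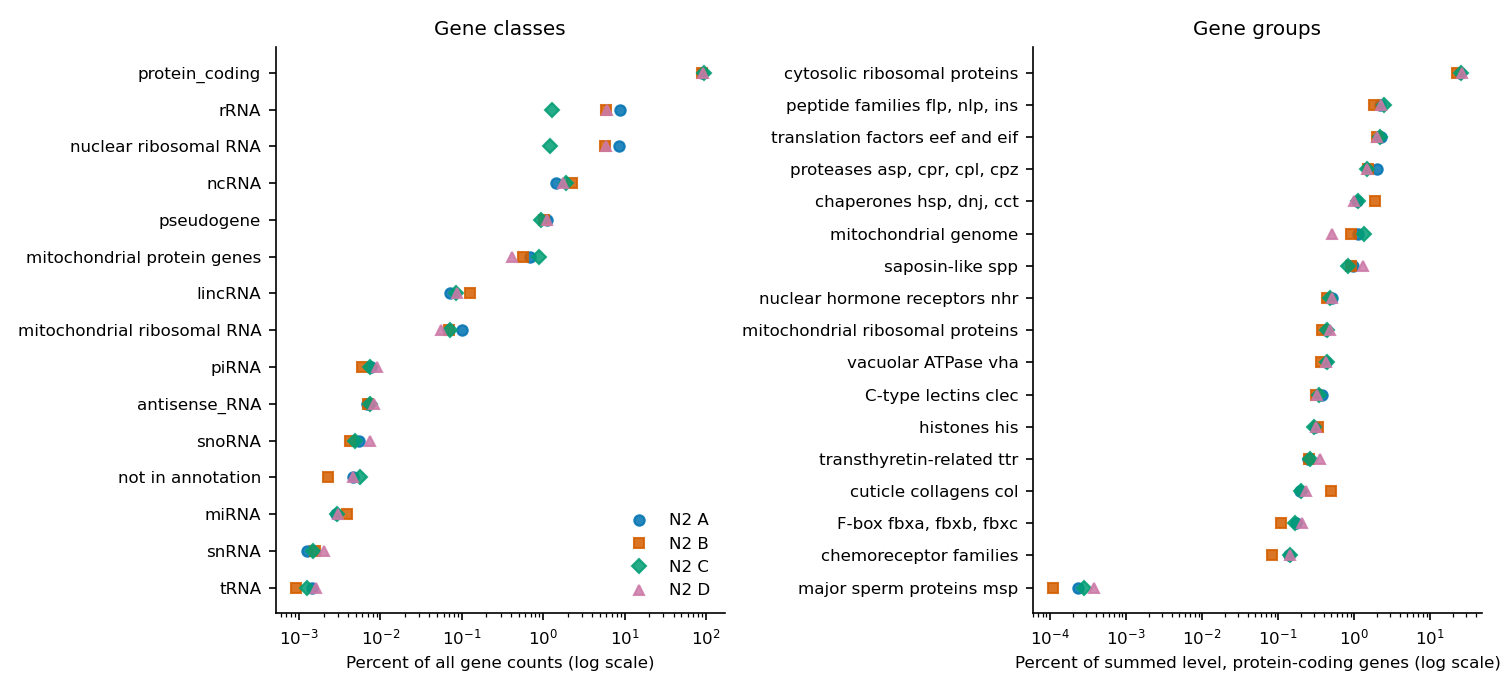
Left, percent of all gene counts in each gene class, and right, percent of the summed level of protein-coding genes in each gene group, both on log axes with 1 symbol for each N2 library. Cytosolic ribosomal proteins hold 22.7% to 25.9% of the summed level, chemoreceptor families 0.0843% to 0.146%, and ribosomal RNA is lowest in C at 1.28%.

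The most abundant messengers encode the translation machinery. The 81 genes for cytosolic ribosomal proteins held 24.9%, 22.7%, 25.6% and 25.9% of the summed level in A to D, or 24.8% ± 1.46 (SD, n = 4). They made up 13 of the 20, 34 of the 50 and 69 of the 100 genes with the highest level. By counts, which favour long genes, they were 37 of the top 100. The 31 genes for translation elongation and initiation factors, eef and eif, added 2.25%, 1.97%, 2.17% and 1.995%.

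The highest median level belonged to eef-1A.1 (III:6970026-6971712, minus strand, 4 exons), which encodes the elongation factor that brings aminoacyl-tRNA to the ribosome. Its level was 11064, 9969, 10372 and 9671 in A to D, or 10269 ± 603 (SD, n = 4). The libraries lay close together. Its paralog eef-1A.2, near-identical in coding sequence, stood at 448, 352, 421 and 384, and how shared reads were split between them is not known. The elongation factor gene eef-2, which drives translocation of the ribosome, took 0.816%, 0.730%, 0.855% and 0.784% of all counts, the largest median share of a protein-coding gene after eef-1A.1. In B tos-1 and hsp-90 had larger shares than eef-2, and tos-1 also than eef-1A.1. By level, fat-6 was above eef-1A.1 in B, at 11062, against 1017, 785 and 1162 in A, C and D. The gene fat-6 was picked after its values were seen.

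Second by median level was ant-1.1, the gene of an ADP/ATP translocase of the inner mitochondrial membrane. Its level was 7181, 9819, 6562 and 5529, highest in B and lowest in D. Ribosomal protein genes rpl-10 (6472, 5477, 6706, 7643) and rpl-43 (6417, 5276, 7409, 6095) followed, each lowest in B on this scale. With TMM factors both lay above the median of the other libraries in B, by 0.10 and 0.17 on the log2 scale, and the median gene of the rpl and rps families by 0.28 and 0.32. The gene rps-16 varied more than its neighbours in the order, at 5635, 5735, 8568 and 4435, with C high and D low.

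Genes outside translation among the 20 were few. F56H9.2, a gene with no assigned name, stood at 5630, 4860, 6590 and 8290. The myosin light chain gene mlc-2 was at 6964, 5336, 6610 and 5359, with A and C above B and D. Its neighbour mlc-1, near-identical in sequence, was at 378, 224, 349 and 329, and the split between them is uncertain. The remaining members included asp-6, an aspartyl protease gene, at 5734, 5445, 4162 and 4471, and alh-8, an aldehyde dehydrogenase gene, at 4386, 4245, 5001 and 3567. All 19 pairs of neighbours in this order had ranges that overlapped. Within libraries, eef-1A.1 was above ant-1.1 in all 4, and in the other 18 pairs the gene ranked first by median was not the higher one in every library.

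**Figure D2:**
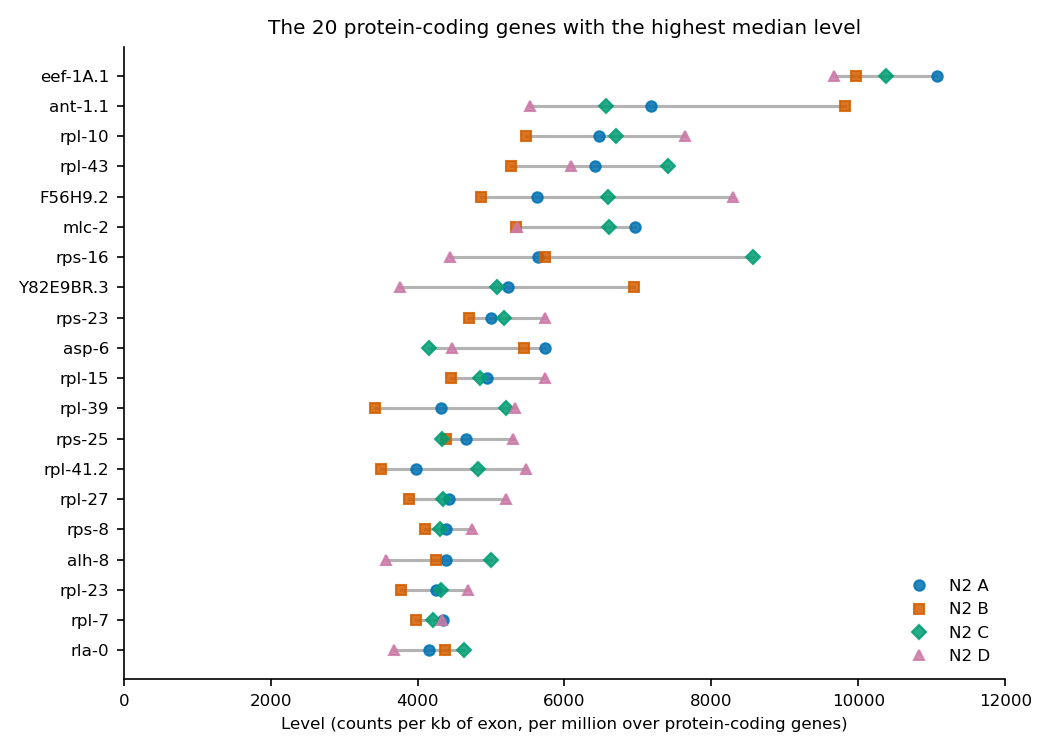
Level of the 20 protein-coding genes with the highest median, with 1 symbol for each N2 library and a grey line from the lowest to the highest. Only eef-1A.1 reaches a median of 10171, and the ranges of all neighbouring genes overlap.

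By share of counts rather than level, 4 more protein-coding genes entered the top 10. They were tos-1 (0.663%, 1.25%, 0.841%, 0.743%), hsp-90, the gene of the cytosolic HSP90 chaperone (0.636%, 0.903%, 0.746%, 0.595%), lec-2, a galectin gene (0.522%, 0.272%, 0.468%, 0.496%), and nog-1, the gene of a nucleolar GTPase of ribosome assembly (0.498%, 0.380%, 0.562%, 0.448%). B was the highest library for tos-1 and hsp-90 and the lowest for lec-2 and nog-1.

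Other groups held smaller shares of the summed level. The 140 peptide genes of the flp, nlp and ins families held 2.18%, 1.83%, 2.46% and 2.25%, about the share of the translation factors. Of the flp genes 30 of 31 were at 1 or more in every library, and of the nlp genes 63 of 71, but of the insulin-like ins genes only 15 of 38. The highest were nlp-49 (1250, 1315, 1599, 1718) and flp-1 (1091, 987, 1461, 1527), with D highest for both. Aspartyl and cathepsin protease genes of the asp, cpr, cpl and cpz families held 1.99%, 1.52%, 1.48% and 1.47%, highest in A. Saposin-like spp genes held 0.961%, 0.914%, 0.835% and 1.29%, highest in D, and spp-14 led them at 3459, 2848, 2866 and 5172.

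The smaller groups were mostly even between libraries. The 70 mitochondrial ribosomal protein genes were all at 1 or more in every library and held 0.433%, 0.376%, 0.445% and 0.481%. Of the 20 vacuolar ATPase genes 19 were, with 0.430%, 0.369%, 0.446% and 0.428%. The 269 nuclear hormone receptor genes held 0.508%, 0.434%, 0.485% and 0.505%, and 163 of them were at 1 or more in every library. Transthyretin-related ttr genes were highest in D (0.251%, 0.256%, 0.262%, 0.352%), and the C-type lectin genes held 0.380%, 0.312%, 0.348% and 0.327%. Chaperone genes of the hsp, dnj and cct families, at 1.09%, 1.91%, 1.11% and 1.01%, and the 156 col cuticle collagen genes, at 0.193%, 0.495%, 0.1998% and 0.233%, were both high in B. Among the chaperones the hsp family carried this, at 0.699%, 1.54%, 0.714% and 0.648%, while the dnj family stood at 0.1502%, 0.149%, 0.143% and 0.154%.

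The 12 protein genes of the mitochondrial genome, which encode subunits of the respiratory chain and of the ATP synthase, took 0.780%, 0.622%, 0.930% and 0.454% of protein-coding counts. D was the lowest library. The level of ATP6, an ATP synthase subunit, was 2600, 2167, 3785 and 655, with D far below the others. COX3 stood at 2863, 2244, 2905 and 1028, with D again lowest. COX1, the catalytic subunit of cytochrome oxidase, varied less, at 1918, 1646, 2046 and 1595.

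The genes of NADH dehydrogenase subunits were uneven among themselves. ND1 stood at 901, 836, 1098 and 401, ND5 at 251, 153, 306 and 186, and ND4L at 9.10, 7.27, 32.2 and 4.95. ND2, ND3 and ND6 had medians of 34.3, 48.3 and 32.3, well under ND1. C was the highest library for all of these, and D the lowest for ND1, ND2, ND4L and ND6. Several of these genes are short.

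Marker genes of larval tissues were present across the body plan, which matches the label of whole larvae. In whole animals, fewer cells of a type and less RNA per cell cannot be told apart. The lists of markers below were ranked by the median level of their members, with 5.01 the median over all protein-coding genes.

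Muscle had the highest markers. All 19 body wall muscle genes were at 10 or more in every library, with a median member at 241. The myosin heavy chain gene of body wall muscle, unc-54, stood at 885, 1134, 936 and 839. The light chain gene mlc-3 was at 1916, 1551, 1983 and 1522, and the actin gene act-4 at 801, 1086, 740 and 749. The lowest members were hlh-1, the MyoD homolog that specifies muscle, at 16.6, 15.3, 17.1 and 16.36, and the myosin chaperone gene unc-45, at 18.3, 15.4, 14.7 and 16.51. These regulators varied little between libraries.

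The 9 pharyngeal muscle markers had a median member at 262. The pharyngeal myosin genes myo-1 (582, 575, 482, 389) and myo-2 (544, 716, 460, 333) were each lowest in D, and the troponin I gene tni-4 stood at 646, 528, 564 and 626. The transcription factor gene ceh-22, which acts early in pharyngeal muscle, was lowest of the list at 10.5, 6.10, 9.51 and 10.7. The 8 pharyngeal gland markers, with a median member at 13.1, spread more widely, from phat-1 at 0.792, 0.248, 0.199 and 1.08 to dod-6 at 524, 182, 417 and 410. Their summed level was 829, 382, 650 and 696, lowest in B.

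All 24 genes used across the nervous system were at 10 or more in every library, with a median member at 69.1. The 4 highest belong to the making of neuropeptides in dense-core vesicles rather than to synaptic vesicles. They are sbt-1, the gene of the 7B2 chaperone of proprotein convertase 2, at 1190, 1075, 1289 and 979, egl-3, that convertase, at 1166, 1041, 1256 and 824, and egl-21, a carboxypeptidase E that trims peptides, at 1165, 878, 1255 and 878. The other is ida-1, a dense-core vesicle membrane protein, at 659, 1133, 700.5 and 442. D was lowest or level with the lowest in all 4 genes. The synaptobrevin gene snb-1 was the next member at 522, 447, 511 and 589, picked after its values were seen.

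Transmitter genes were lower. The vesicular acetylcholine transporter gene unc-17 stood at 34.3, 30.4, 34.4 and 26.02, and the vesicular glutamate transporter gene eat-4 at 23.0004, 21.4, 25.03 and 22.6. For GABA, the synthesis gene unc-25 was at 46.8, 50.7, 54.9 and 41.1 and the vesicular transporter gene unc-47 at 10.2, 11.6, 14.3 and 11.9. The 4 cholinergic genes had a median member at 28.8 and the 5 GABA genes at 11.7. The ranges of unc-17 and eat-4 did not overlap, with unc-17 higher, and those of unc-47 lay below both, while those of unc-25 lay above both. The genes unc-17 and cha-1 share a promoter and first exon, so part of their reads is common.

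Genes of the amine transmitters were lower still. The dopamine transporter gene dat-1 stood at 12.5, 5.23, 13.6 and 11.01 and the dopamine synthesis gene cat-2, a tyrosine hydroxylase, at 1.65, 1.15, 1.68 and 1.39. Tryptophan hydroxylase, tph-1, which makes serotonin, was at 6.04, 6.76, 6.22 and 4.08. The tyramine synthesis gene tdc-1 was at 8.56, 8.03, 7.69 and 8.41, and the octopamine synthesis gene tbh-1 at 3.09, 4.72, 2.52 and 2.30. The median members were 4.06 for the 3 dopamine genes, 7.39 for the 2 serotonin genes and 5.51 for tyramine and octopamine, all above the floor.

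Sensory neuron markers were also found. Of 18 cilium and sensory transduction genes 17 were at 1 or more in every library, with the RFX factor gene daf-19, the master regulator of cilia, highest at 41.7, 33.1, 40.8 and 32.4 and the cyclic nucleotide channel genes tax-2 (2.27, 0.843, 2.86, 2.65) and tax-4 (2.02, 1.18, 2.48, 2.13) lowest. The median member was at 11.8. All 8 touch receptor genes passed 1 as well, with a median member at 18.7 and a summed level of 211, 251, 206 and 206, led by the tubulin acetyltransferase gene mec-17 at 65.3, 74.1, 65.6 and 81.1. The channel subunit gene mec-10 was lowest at 4.42, 2.76, 3.53 and 4.01.

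Genes used by single pairs or small sets of sensory neurons spread widely around a median member of 4.39. The diacetyl receptor gene odr-10, of the AWA olfactory neurons, stood at 74.7, 55.4, 95.6 and 72.3 and was the highest of the 14. The thermosensory cyclase genes of the AFD neurons gcy-18 (10.6, 18.3, 7.22, 7.55) and gcy-23 (9.53, 12.63, 10.1, 8.30) were each highest in B. The receptor genes str-2 and srg-8 were lowest, and str-2 was without a count in 3 libraries and at 0.104 in C. Of the 14 genes 6 were under 1 in every library.

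Intestinal markers ranged from the aspartyl protease gene asp-1 at 4493, 3628, 2769 and 2911 to the acid phosphatase gene pho-1 at 4.08, 0.323, 6.50 and 4.65. Of 15 genes, with a median member at 42.03, 14 were at 1 or more in every library, and pho-1 in B was the exception. The GATA factor gene elt-2, which specifies and maintains the intestine, stood at 16.3, 6.85, 9.49 and 13.7. The intestinal intermediate filament gene ifb-2 was at 710, 1156, 754 and 1092, with B and D high. The metallothionein gene mtl-2 was at 291, 61.0, 302 and 276, low in B.

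The 14 epidermal markers, with a median member at 15.4 and 9 at 1 or more in every library, were uneven. Junction and cytoskeleton genes were high, with the apical junction gene ajm-1 at 134, 138, 113 and 107, the dlg-1 scaffold gene at 70.5, 68.6, 55.9 and 58.4 and the intermediate filament gene ifb-1 at 88.3, 85.3, 67.2 and 67.0. The GATA factor gene elt-3 of the epidermis was even, at 51.03, 55.9, 50.1 and 49.4. The hedgehog-related genes wrt-2 and wrt-10 were the lowest, with medians of 0.0620 and 0.173, and wrt-10 reached 1.73 in D. The collagen gene dpy-7, needed at each moult, had a median of 0.462 and was picked after its values were seen.

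Seam cells, the epidermal stem cells of the larva, had 6 of 9 markers at 1 or more in every library and a median member at 8.85. The GATA factor genes elt-6 (25.5, 7.77, 25.3, 20.1) and egl-18 (22.9, 14.2, 20.2, 18.6) were highest, both lowest in B, and nhr-73 had no count. The seam cell division gene bro-1 stood at 0.114, 0.107, 0.205 and 0.417, and its partner rnt-1, a RUNX factor, at 11.3, 3.83, 9.73 and 8.997. The 9 excretory cell genes had a median member at 16.7 and were led by exc-9 at 171, 103, 185 and 149. The 3 coelomocyte genes lay between 8.05 and 11.2 in median level, and the 8 glial markers, with a median member at 5.12, ran from ptr-10 at 0.118 to vap-1 at 40.3.

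Transcripts of stages outside the arrested larva were low. All 6 yolk protein genes together had a summed level of 2.54, 0.651, 1.70 and 2.38, and none reached 1 in every library. The 16 sperm markers had a summed level of 6.32, 6.79, 5.16 and 5.41 and a median member at 0.0368, against 0.136 for yolk, and msp-56, msp-77, msp-142 and both copies of ssp-9 had no count. The highest was spe-9, a sperm surface protein gene, at 3.14, 1.60, 2.41 and 2.74. The 9 adult cuticle genes had a median member at 0.327, none at 1 in every library, and the adult collagen gene col-19 stood at 0.278, 0.262, 0.377 and 0.454.

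Genes of the moult were at a low level in most libraries. Those of cell division had a median member just under the 5.01 of all protein-coding genes. The 14 moulting genes had a median member at 0.550. Their regulator nhr-23 stood at 5.23, 1.93, 3.64 and 4.00, while bli-1, a collagen of adult cuticle struts, had a median of 0.0453. The exception was mlt-10 at 3.24, 66.4, 2.07 and 1.79, which alone set the high sum of this list in B (26.6, 80.6, 24.3, 25.4). The 19 cell cycle genes had a median member at 4.25, and the highest was cki-1, the inhibitor of cyclin-dependent kinases that holds blast cells in arrest, at 63.9, 22.7, 51.04 and 54.2.

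**Figure D3:**
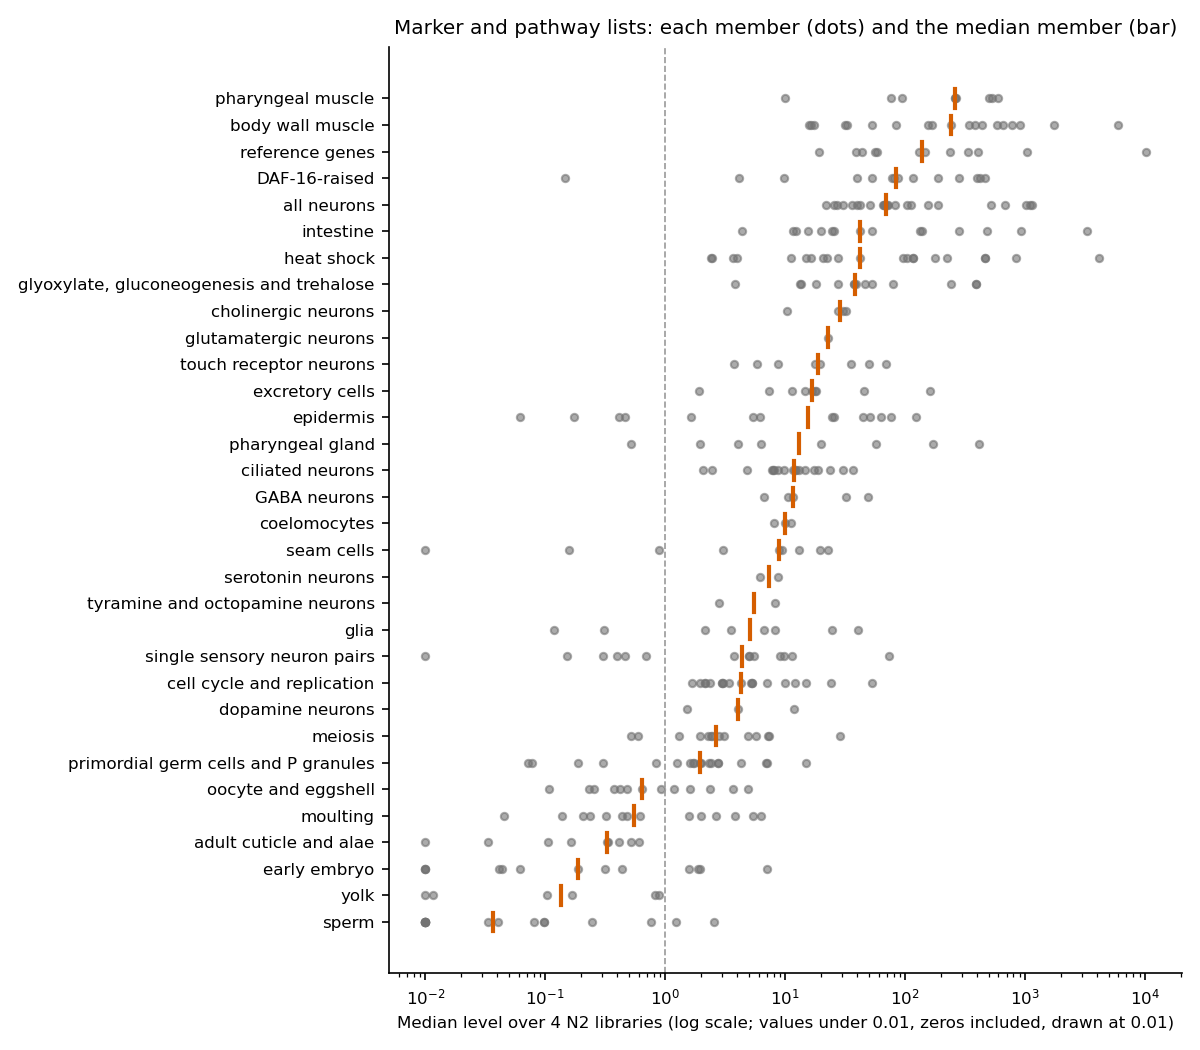
Median level over 4 N2 libraries of each member (dots) of 32 gene lists, on a log axis, with a bar at the median member and values under 0.01 drawn at 0.01. Muscle lists have median members of 241 and 262, and sperm, yolk and early embryo lists have medians under 0.2 (0.0368, 0.136 and 0.189), left of the dashed line at 1.

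Germ line and embryo genes differed by library, and D was high in each of 5 lists. The summed level of 13 early embryo genes was 13.8, 8.43, 12.96 and 133 in A to D. That of 19 genes of primordial germ cells and P granules was 55.6, 57.6, 45.8 and 119.4, of 13 oocyte and eggshell genes 15.7, 16.51, 13.5 and 53.8, and of 14 meiosis genes 76.95, 50.5, 65.9 and 103.5. The sum of the 19 cell cycle genes was 177, 114, 154 and 431. The median members were at 0.189 for early embryo, 1.93 for germ cell, 0.643 for oocyte and 2.65 for meiosis genes. In all 5 lists D lay above the other 3 libraries with no overlap.

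Single genes showed the size of this difference. The maternal RNA-binding protein gene pos-1, needed for early cell fates, stood at 1.80, 0.328, 1.92 and 83.9, or 31 counts in A and 1772 in D. The polarity gene mex-5 was at 2.20, 0.988, 0.908 and 15.3 and the germ line repressor gene pie-1 at 2.50, 0.710, 1.43 and 9.14. The mitotic cyclin gene cyb-3 was at 1.91, 0.918, 1.44 and 63.6, and the replicative helicase gene mcm-7 at 2.14, 1.29, 1.74 and 14.4. The embryonic endoderm gene end-1 (0.0865, 0, 0, 0.777) and the early zygotic gene pes-10 (0, 0, 0, 1.53), picked after their values were seen, also had their highest level in D. A, B and C lay below D in each of these genes.

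Other members of these lists moved less. The Piwi gene prg-1 was at 13.7, 15.1, 14.8 and 17.5, and the helicase gene glh-1 of P granules at 7.28, 6.78, 5.13 and 11.5. The meiosis gene him-17 was at 29.8, 23.6, 30.2 and 26.97, and cki-1, above, was not raised in D. On the CPM scale with TMM factors, D was over 2-fold above the median of the other libraries for 10 of 13 early embryo genes, 13 of 19 germ cell genes, 7 of 13 oocyte genes, 5 of 14 meiosis genes and 12 of 19 cell cycle genes. Of all 19247 protein-coding genes with a count, 2040 (10.6%) were. No count of embryos, unhatched eggs or larval stage was given in the labels, and the part of such material in D was not tested.

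Many gene families were silent in part. Among 94 families of at least 20 protein-coding genes that share the letters of their symbol, 10 had 75% or more of their members under 1 in every library. The major sperm proteins, msp, led with 30 of 31 (96.8%), and 14 had no count. The other 9 were chemoreceptor families, srj (92.3%), str (86.0%), srw (85.3%), srh (78.2%), srbc (77.5%), srg (77.05%), sru (76.9%), srz (76.2%) and srd (76.1%). Of the families just under the threshold, oac, a family of acyltransferases, had 73.2% and srx 72.3%.

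Chemoreceptor families, which encode G protein-coupled receptors used mostly in sensory neurons, hold 1309 genes in the annotation. Of these 976 (74.6%) were under 1 in every library, 102 had no count and 111 were at 1 or more in every library. Together they held 0.140%, 0.0843%, 0.145% and 0.146% of the summed level, lowest in B. A gene used in a single neuron pair would be diluted in whole larvae, so a level under 1 does not show that it is off in every cell.

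A few receptors were far above their families, and 6 of the 1309 were at 10 or more in every library. The highest of the 1309 was srw-85 at 78.1, 41.7, 65.0 and 80.5, followed in its family by srw-86 at 61.0, 15.6, 38.9 and 58.8. Families were taken by the letters of the symbol, so the receptor gene odr-10, given above, is not among them. In the srh family srh-212 stood at 24.1, 32.7, 37.9 and 31.7. The top members srv-4 (43.4, 4.46, 51.4, 49.2), srg-47 (35.9, 1.25, 26.5, 21.4) and str-176 (17.7, 0.403, 19.8, 14.4) were low in B and higher in the other 3 libraries. The receptor gene srbc-20 went the other way, at 11.5, 47.3, 8.11 and 12.4.

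The chemoreceptor genes touch the map of the genome. Chromosome V holds 890 of the 1309 (68.0%), among 4994 protein-coding genes in all. Of its 1925 genes under 1 in every library, 688 (35.7%) are chemoreceptors. Of protein-coding genes on V 45.5% were at 1 or more in every library, against 73.6% on III, 66.3% on I, 65.7% on X, 57.1% on IV and 55.5% on II. On V the share was 54.7% in the middle of the chromosome and 35.4% in its outer parts. The median level was 1.68 on V and 13.2 on III.

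Other large families were mixed. Of 72 histone genes 39 were under 1 in every library and 17 were at 1 or more, led by his-37 at 1034, 834, 951 and 1199 and his-71, which encodes a replacement histone H3.3, at 610, 759, 589 and 506. Most histone messengers of dividing cells end without a poly(A) tail, and the labels do not say how RNA was selected. Of 240 C-type lectin genes 141 were under 1 in every library, while clec-63 stood at 1525, 1305, 1253 and 1033. Of the 322 F-box genes of the fbxa, fbxb and fbxc families 145 were, and fbxa-24 was highest at 581, 356, 639 and 590. Of the 156 col genes 73 were, and col-39 stood at 303, 686, 412 and 370.

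At the other end, 9 families had every member at 1 or more in every library. They were the rps ribosomal proteins (31 genes), the mitochondrial ribosomal proteins mrpl (41) and mrps (29), the initiation factors eif (25), the Mediator subunits mdt (20), the vps genes of endosomal sorting (31), the rab GTPases (20), the dnj co-chaperones (29) and the globins glb (34). Among the globins glb-1 was high in B, at 132, 449, 176 and 165, in a family with a median level of 13.3.

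**Figure D4:**
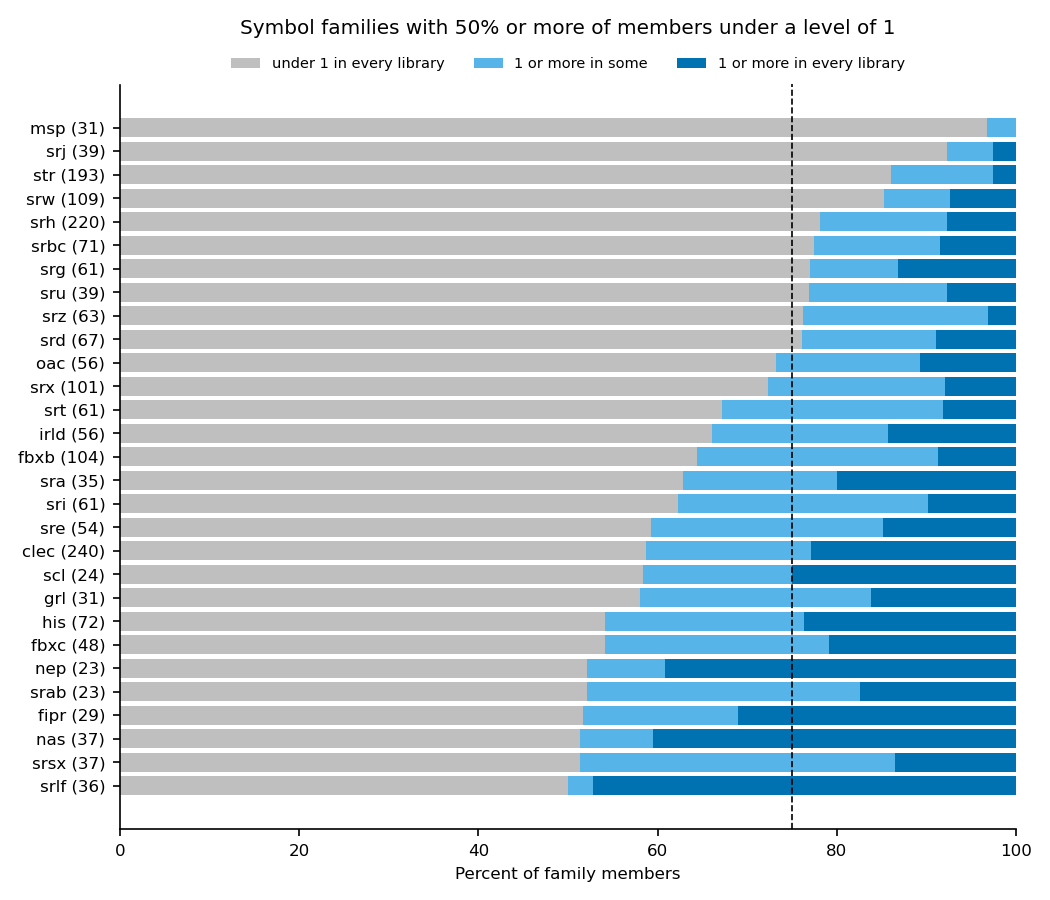
Percent of members of each family that were under a level of 1 in every N2 library (grey), at 1 or more in some (light blue) or in every library (dark blue), for families with 50% or more under 1, with family size in brackets. The dashed line marks 75%, which 10 families pass, led by msp at 96.8%.

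The 4 libraries were not equally alike. Over protein-coding genes with a median level of 10 or more (8195), the correlation of log2 CPM across genes was 0.989 between A and C, 0.980 between A and D and 0.977 between C and D, and 0.912 to 0.918 between B and each of these. Genes are not independent replicates, and these values describe the libraries only. Along the leading principal component, with 71.3% of the variance, B lay at 78.8 and the others between −32.2 and −21.6. The next, with 21.9%, set D (38.9) against C (−29.4).

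Spread between libraries was widest for genes at low levels and narrowest for the most abundant ones, and was about the same in the ranges between. The median ratio of the highest to the lowest library, in CPM with TMM factors, was 2.25-fold for genes at a level of 1 to 10, 1.56-fold at 10 to 100, 1.59-fold at 100 to 1000 and 1.34-fold above 1000. Without B these were 1.44-fold, 1.24-fold, 1.24-fold and 1.18-fold. The common biological coefficient of variation was 0.359 with all 4 libraries and 0.230 without B, and 0.402, 0.391 and 0.361 without A, C and D. Of the 8195 genes 57 lay over 2-fold from the median of the other libraries in A, 1327 in B, 67 in C and 97 in D.

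The direction of the difference in B depended on the scale. With TMM factors 742 of the 1327 genes were higher in B and 585 lower. On the level scale, where high genes take up part of the fixed total, 356 were higher and 1435 lower, and the median gene of B lay at −0.37 on the log2 scale against 0.06 with TMM factors. Levels of B in the text are therefore lower by about this shift than TMM scaling would put them, and a level in B that is modestly under the others may be level with or above them on the other scale.

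The 14 genes for the glyoxylate cycle, for making glucose and for trehalose had a median member at 38.3 and a summed level of 1409, 10205, 1364 and 1170, high in B. The phosphoenolpyruvate carboxykinase gene pck-1, which commits carbon to gluconeogenesis, stood at 356, 5259, 427 and 281, and the malate dehydrogenase gene mdh-1 at 242, 2150, 240 and 198. The bifunctional glyoxylate cycle gene icl-1 was at 71.9, 598, 16.9 and 21.4, highest in B with A next. In B 9 of these 14 genes were over 2-fold above the others with TMM factors, against 8.61% of all protein-coding genes with a count.

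Heat shock genes were high in B as well, with a median member at 41.8 and a summed level of 6579, 15077, 6761 and 6398. With TMM factors 15 of 21 were over 2-fold above the median of the other libraries in B, against 8.61% of all protein-coding genes with a count. No member was over 2-fold below there. The median deviation of a member in B was 2.27 on the log2 scale with TMM factors and 1.84 on the level scale. A few abundant members carry most of the sum, but the rise in B was not limited to them. The middle level of the list, which can be a different gene in each library, was 53.7, 42.3, 43.1 and 105.6 in A to D. It was lowest in B and highest in D, and does not follow single genes. In D 8 of 21 were over 2-fold above the others, against 10.6% of all protein-coding genes with a count. The constitutive HSP70 gene hsp-1 stood at 869, 3034, 816 and 737, and hsp-90 at 4030, 5741, 4293 and 3398. The mitochondrial HSP70 gene hsp-6 moved less, at 472, 584, 454 and 384. The small heat shock genes hsp-16.1 and hsp-16.48 each stand for 2 gene identifiers, near-identical copies whose reads cannot be assigned with certainty. Genes raised by DAF-16, the FOXO factor of insulin signalling, had a median member at 84.5 and sums of 2066, 4787, 2079 and 2371. In B 5 of 14 were over 2-fold above the others, against 8.61% of all protein-coding genes with a count. Another 2 were over 2-fold below, a share no larger than the 17.2% of all these genes. Those below were the catalase gene ctl-2, at 233, 64.6, 181 and 197, and the superoxide dismutase gene sod-3, at 3.46, 0.969, 4.82 and 7.26. The other members included mtl-1 even across libraries at 394, 403, 432 and 462 and hsp-12.6 at 366, 928, 404 and 524. The cause of the B pattern was not tested.

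The reference gene gpd-3, a glyceraldehyde 3-phosphate dehydrogenase often used to normalise, was not even in these libraries. The 12 reference genes had a median member at 139. The level of gpd-3 was 1042, 5596, 1039 and 818, and reads shared with near-identical gpd-2 cannot be told apart. The tubulin gene tbb-2 stood at 340, 272, 330 and 342 and the TATA-binding protein gene tbp-1 at 19.01, 10.7, 18.9 and 22.7. Both were lowest in B on the level scale.

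**Figure D5:**
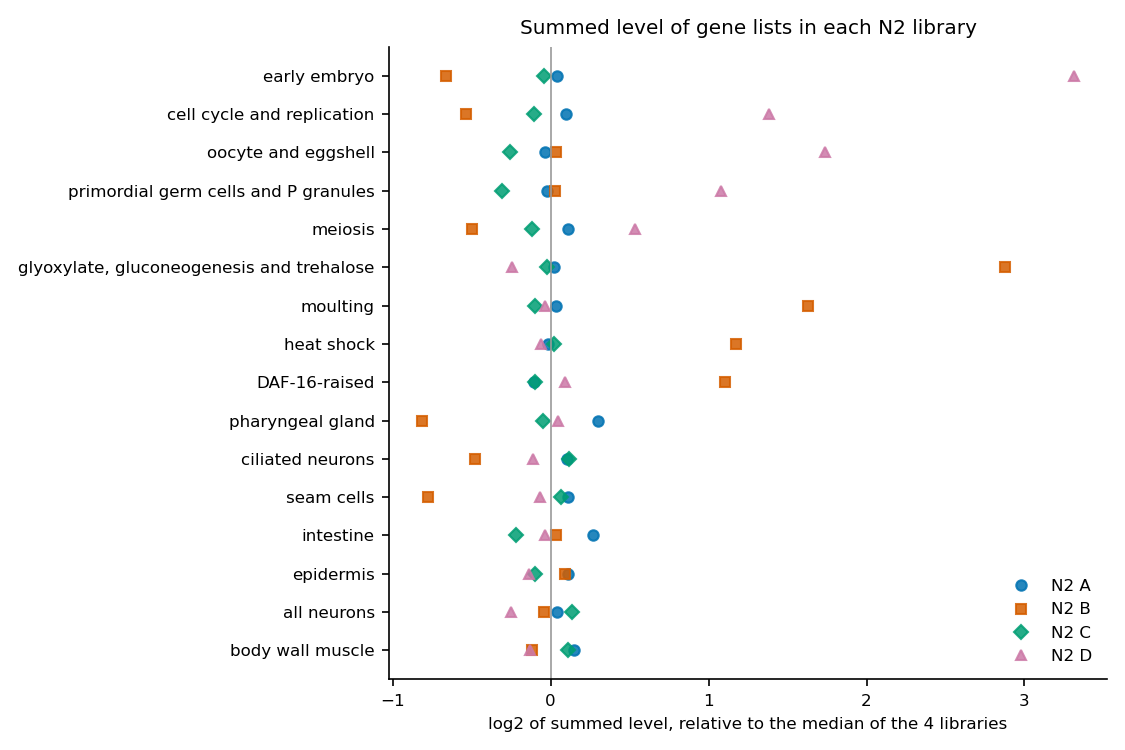
Summed level of 16 gene lists in each N2 library, as log2 relative to the median of the 4 libraries. D stands to the right in the early embryo list (133 against 8.43 to 13.8) and in the cell cycle, oocyte, germ cell and meiosis lists, and B in the glyoxylate list (10205 against 1170 to 1409) and the moulting, heat shock and DAF-16 lists.

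The widest range over the 4 libraries belonged to F22B5.4 (II:8449710-8452742), at 41.8, 2890, 32.5 and 28.1, a ratio of 139-fold in CPM with TMM factors and of 1.48-fold without B. The genes acer-1 (110, 1556, 45.8, 41.995) and C18D11.6 (46.2, 1024, 35.7, 59.6) were also high in B. Others among the 10 widest were low in B, with the cathepsin B gene cpr-4 at 67.6, 0.540, 21.3 and 18.7, cpg-18, of a chondroitin proteoglycan, at 32.7, 0.743, 65.1 and 40.6, T16G1.4 at 45.6, 0.822, 26.2 and 33.5, T28A11.19 at 48.7, 1.17, 71.9 and 75.04, and nspe-6 at 20.1, 0.199, 21.3 and 20.4. Without B the last of these varied by only 1.10-fold.

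With B left out the widest gene was sip-1 (III:10506106-10506801), a small heat shock protein gene known from embryos and oocytes, at 15.1, 6.52 and 240 in A, C and D, a ratio of 34.8-fold in CPM. The ARF-like gene warf-1 followed with 9.86, 1.44 and 34.98, and the cuticle genes col-14 (12.2, 1.69, 26.97), col-48 (11.5, 1.86, 22.996) and cut-2 (25.1, 4.88, 49.6) came after it. All were highest in D and lowest in C, with A between. The Hsp70 gene F44E5.4 had the same order among these 3 libraries, at 7.73, 2.96 and 25.2.

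The narrowest genes are shown in CPM with TMM factors, the scale on which they were chosen. T27E9.2 stood at 31.4, 30.9, 31.6 and 31.7, a ratio of 1.03-fold, and mop-25.2, whose product is a relative of MO25 kinase scaffolds, at 32.2, 31.2, 31.6 and 31.7. The calcium-binding protein gene cex-2 was at 68.5, 68.3, 67.3 and 66.0, and pmpl-1 at 63.4, 61.98, 60.8 and 62.3. The other 6 were R11G10.3, R05D11.9, slcr-46.3, C54D10.10, Y61A9LA.10 and Y87G2A.13, each with a ratio of 1.04-fold. On the level scale all 10 were lowest in B, by the shift given above.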

How the data were processed

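Raw gene counts of 12 whole-larva libraries were deposited by the authors, 4 of them N2. The submitters' processing notes name Bowtie 0.12.2 for alignment and the builds WBcel235 and mm8. The latter is a mouse build whose role was not stated. Nor were the counter, the gene models used for counting, strandedness or the handling of reads with several matches. Names, positions and exon lengths came from Ensembl release 115 of WBcel235, which holds 46924 of 46934 identifiers, and a symbol was found for 44113.

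From the deposited counts, levels (counts per kilobase of exon union, scaled to 1000000 over protein-coding genes) were computed with Python 3.11.15, pandas 2.3.3 and numpy 2.4.6. CPM with TMM factors (prior count 2 for log2 values) and the dispersion of an intercept-only model after filterByExpr (minimum count 10, minimum total 15) came from edgeR 4.0.16 in R 4.3.3, and other size factors from DESeq2 1.42.0. Both steps were tested on simulated data. No test was made, since 1 group is described. Libraries were compared for copies, and chi-square over its degrees of freedom was at least 41.1 for any pair. Precision follows from the depths in the text (3 counts make 0.0861 to 0.130 CPM).

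The members, the 32 gene lists and the rules were chosen with earlier results of these data known. Named genes are the 20 highest by level and 10 by share of counts, the mitochondrial genes, up to 4 highest and 2 lowest members and those without a count of each list, the 2 highest of each family, the 10 widest and 10 narrowest genes and the 10 widest without B, and the 2 highest of each non-coding class. Genes set beside these as paralogs, or shown to have an effect on a list, were picked after their values were seen. The heat shock symbols daf-21, hsp-16.11 and hsp-16.49 were not matched as symbols, while hsp-90, hsp-16.1 and hsp-16.48 are in that list. Other settings were other thresholds, lengths, scalings, filters and family sizes, and each library left out. The level scale for deviations was added after seeing the data.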

Additional observations from a re-analysis of the deposited data

Results flagged for a closer look

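Values of the text were marked where the gap from the highest or the lowest library to its nearest neighbour took up nearly the whole range of the 4 libraries. By chance this marks about 5% of groups, but the values looked at include genes chosen for their range over these same libraries and lists chosen with earlier results known, so 5% is no baseline for their number. Of 237 values looked at, 46 were marked, 31 of them through B, 12 through D, 2 through C and 1 through A. Values are levels unless a percent is given, and none of the causes was tested.

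In D the summed levels of the early embryo list (133), the oocyte and eggshell list (53.8) and the germ cell list (119.4) were set apart as high, with pos-1 at 83.9, cyb-3 at 63.6, mex-5 at 15.3, mcm-7 at 14.4, pes-10 at 1.53 and end-1 at 0.777. The small heat shock gene sip-1 (240), wrt-10 (1.73) and the share of ttr genes in the summed level (0.352%) were also high in D.

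In B the summed levels of the glyoxylate (10205), heat shock (15077), DAF-16 (4787), moulting (80.6) and touch receptor (251) lists were high. So were the genes pck-1 at 5259, gpd-3 at 5596, gpd-2 at 1292, hsp-1 at 3034, F22B5.4 at 2890, mdh-1 at 2150, acer-1 at 1556, C18D11.6 at 1024, icl-1 at 598, glb-1 at 449, mlt-10 at 66.4 and srbc-20 at 47.3. Shares were high in B for chaperones (1.91% of level), their hsp family (1.54% of level), col genes (0.495% of level), miRNA genes (0.00394% of counts) and T09F5.12 (0.0754% of counts).

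Values set apart as low in B were the chemoreceptor share (0.0843% of level), mtl-2 at 61.0, srv-4 at 4.46 and nspe-6 at 0.199. All are on the level scale, where the median gene of B lay at −0.37 in log2, against 0.06 with TMM factors. T27E9.2 at 154, C54D10.10 at 39.5, Y61A9LA.10 at 26.9, Y87G2A.13 at 12.5 and R05D11.9 at 9.38 were low on the level scale only, since their CPM with TMM factors differed by 1.04-fold or less between libraries. In C, ND4L was high at 32.2 and str-2 was the only value above zero, at 0.104. In A the share of asp, cpr, cpl and cpz genes was high, at 1.99% of level.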

How the results depend on the processing

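No paired analysis was possible because 1 strain is described and no comparison is made. The count of genes at 1 or more in every library stayed within 1.5 times under all settings tried. The count of genes without a count rose from 737 to 2076 when 3 counts or fewer were allowed, and ranged from 833 to 1170 with each library left out, highest without D. The share of the 100 top genes was 26.4% at the median library and 21.8% when ranked by level. The number of mostly silent families was 10, and it was 29 at 50% of members, 2 at 90%, 2 at a threshold of 0.5 and 19 at a threshold of 2. The biological coefficient of variation ranged from 0.230 to 0.402 with each library left out. It was 0.394 with library size alone and 0.431 without a filter. For B, the level scale gave 1791 genes over 2-fold against 1327, with 19.9% of them higher against 55.9%. With the longest transcript as length, 1 of 32 lists and 19 of 593 named genes moved by more than their spread. Leaving out any library moved 7 of 593 genes and no list. For genes this outcome was nearly fixed in advance, since dropping 1 of 4 values moves a median only to a middle value. It therefore does not show whether levels depend on B or D. Depth limits values near the floor, such as the sperm and yolk genes.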
